A study of Sus scrofa with 4 samples.

Results

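The 45 mitosis and G2/M genes described here are protein-coding genes that act from the end of DNA replication to the splitting of the cell. They were chosen by name, as genes with a known role in mitotic entry, the spindle, the kinetochore or cytokinesis. The rule used no measured value, though the list was made with earlier results of these data known. Each symbol matched 1 protein-coding row, so the set held 45 of the 16192 protein-coding genes listed. By role the set was divided into 9 groups of 3 to 9 genes.

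The cells were subcutaneous preadipocytes from male Chinese Erhualian piglets, differentiated in culture and collected at 4 stages named by the day, D0, D2, D4 and D8. The piglets were less than 1 week old. At D0 the cells had grown to confluence and had received no inducer. By D2 they had spent 2 days in a cocktail of dexamethasone, isobutylmethylxanthine and insulin, by D4 another 2 days with insulin, and by D8 the rest of the time in serum medium without inducers. Total RNA of 3 piglets was pooled in equal amounts into 1 strand-specific, ribosomal RNA-depleted library for each stage. With no replicates, a difference between stages and one between libraries cannot be told apart. No p-value is given, and differences between the piglets cannot be seen. The cells were primary cultures, pelleted from collagenase-digested fat, rather than a clonal line, so a stage may hold several kinds of cells.

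A cell enters mitosis when CDK1, bound to cyclin A or cyclin B, becomes active. Chromosomes then condense, kinetochores attach them to a microtubule spindle, a checkpoint delays separation until all are attached, and the anaphase-promoting complex (APC/C) degrades the cyclins and securin to let the cell divide. Most of these genes are transcribed late in the cell cycle, and resting cells repress them through the DREAM complex. In cultured adipocyte precursors the inducing cocktail is known to be followed, in mouse lines, by a limited round of divisions called mitotic clonal expansion, before the cells leave the cycle and fill with lipid.

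Levels are given in FPKM, which the authors deposited and which scales the fragments of a gene by its length and by the fragment total of the library, so that genes of different length can be set side by side. The fragment totals behind these values, computed from the values themselves, were 75387428, 54987801, 74358922 and 54128151 at D0, D2, D4 and D8. The summed FPKM of 8 adipocyte markers was 122, 484, 1715 and 2066 at D0, D2, D4 and D8. FABP4 (853 at D4 and 1557 at D8) was the largest part of the sum. Of the 6 adipocyte markers that were reliably expressed, 5 were lower at D8 than at D4, with a median log2 ratio of -0.91. The markers not reliably expressed, CIDEC (5.01 at D4 and 54.6 at D8) and LEP (0.0269 and 0.314), were higher at D8. Over all 8 markers the median was -0.49. All 8 preadipocyte and fibroblast markers were at FPKM 1 or above in every library, with sums from 3157 to 4194. Markers of other cells were low: 6 of 8 leukocyte markers were listed and summed to between 3.54 and 8.03, mostly CD14, with LYZ at 0 in the D0, D2 and D4 libraries and CSF1R at 0 in the D8 library, and 5 of 6 endothelial markers summed to between 1.16 and 2.68, mostly PECAM1, with CDH5 at 0 in 3 libraries and VWF in 3. Only 1 of 3 erythroid markers, HBB, and 1 of 4 myogenic markers, MYOG, were listed. HBB did not exceed 0.271 and MYOG did not exceed 0.0269. The 6 smooth muscle and pericyte markers moved between stages: their sum was 6205, 664, 510 and 4810 at D0, D2, D4 and D8, with 4 of 6 (ACTA2, TAGLN, DES and CNN1) at FPKM 1 or above throughout and none at 0. The other 2, MYH11 and RGS5, stayed under FPKM 1.

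Each of the 45 genes stood lower at D2 than it had at D0, and each stood higher at D4 than at D2, except LBR where the libraries were scaled by median ratios or by summed protein-coding FPKM. At D8 all 45 stood below their D0 level, except CKAP2L with median-ratio scaling. Of the 16192 protein-coding genes above 0 in a library, 49.6% were lower at D2 than at D0. Among the same genes 59.1% were higher at D4 than at D2, and 59.8% were lower at D8 than at D0. The median FPKM of the set was 9.99, 1.28, 4.30 and 6.45 at D0, D2, D4 and D8. At D0, 44 of the 45 were at FPKM 1 or above. At D2 this held for 24, at D4 for 38 and at D8 for 39. Together the 45 genes took 0.188% of all D0 fragments (95% Wilson interval 0.187 to 0.189) and 0.0373% of those of D2 (0.0368 to 0.0378). The share was 0.0951% in the D4 library (0.0944 to 0.0958) and 0.130% in the D8 library (0.129 to 0.131). These intervals and those that follow cover counting error only, and fragments without molecular identifiers are not independent molecules. In bulk libraries such as these, fewer dividing cells and less of these RNAs per dividing cell cannot be told apart.

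**Figure D1:**
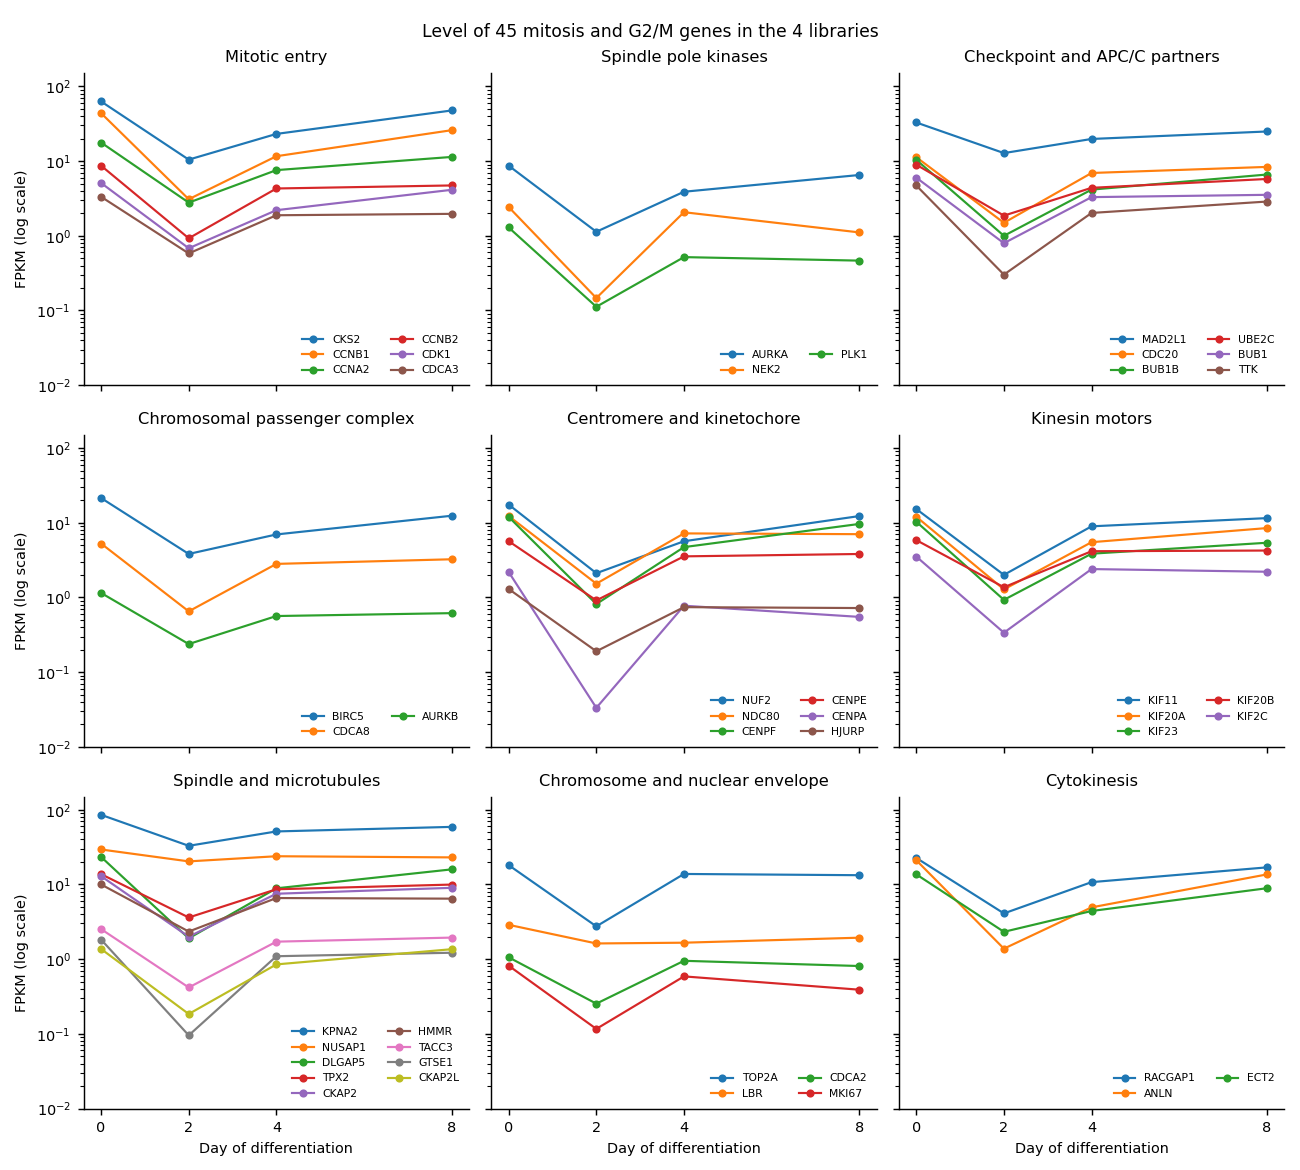
FPKM on a log scale (y axis) against the day of differentiation (x axis) for the 45 genes, one panel for each of the 9 role groups, 1 pooled library per point and no error bars. On these deposited values the lowest point of each line lies at D2 and the highest at D0 (with other scalings not for CKAP2L and LBR), and genes of a group lie far apart, for example KPNA2 at 85.4 and CKAP2L at 1.37 at D0.

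A gene counted as reliably expressed at FPKM 1 or above in at least 3 of the 4 libraries, and as past the limit at a ratio of at least 2 on log2(FPKM + 0.01), the limits of the study's methods without its test. The filter was passed by 38 of the 45 genes. CENPA, HJURP, PLK1, AURKB, MKI67, CDCA2 and CKAP2L did not pass it and are described with the others, since a filter on low values removes genes that are under FPKM 1 in 2 or more libraries. Between D0 and D2, 36 of the 38 genes were at least 2-fold lower, while 10.1% of the 9191 reliably expressed protein-coding genes were. Over all 45 genes 43 were at least 2-fold lower, beside 17.0% of the 16192 protein-coding genes above 0 in a library. The exceptions were NUSAP1 and LBR. The median log2 ratio of the 38 genes was -2.89, and that of all reliably expressed genes was -0.03. Over the 45 genes the level at D2 was between 1.52% (CENPA) and 69.3% (NUSAP1) of that at D0, with a median of 13.5%. For all 45 the counting interval of the ratio lay below 0, and for 43 it lay wholly past a 2-fold difference. The share of all genes with such intervals is not given, here or for the comparisons that follow, so these counts describe the set only. With many fragments an interval can lie clear of 0 at a small ratio. The 4 smooth muscle genes named above were also at least 2-fold lower at D2. In that step MYH11 was at log2 -0.84 (interval -1.16 to -0.56), and RGS5 was level within counting error (-0.12, interval -1.14 to 0.84). Unlike the mitotic genes the 4 were lower still at D4. From D2 to D4 MYH11 was level (log2 -0.04, interval -0.38 to 0.30) and RGS5 was higher (2.31, interval 1.62 to 3.24). The part of the smooth muscle genes in the result was not tested.

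Between D2 and D4, 32 of the 38 reliably expressed genes were at least 2-fold higher, beside 4.24% of all genes that passed the filter. Over the 45 genes 39 were, beside 12.4%. The 6 genes short of the limit were MAD2L1, KPNA2, NUSAP1, LBR, BIRC5 and ECT2. The median ratio was 3.89, with a range from 1.02 for LBR to 23.3 for CENPA. The counting interval held 0 for 1 gene and lay above 0 for the other 44. D2 is the library that both of these comparisons share, so a low value there enters both, with opposite sign.

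**Figure D2:**
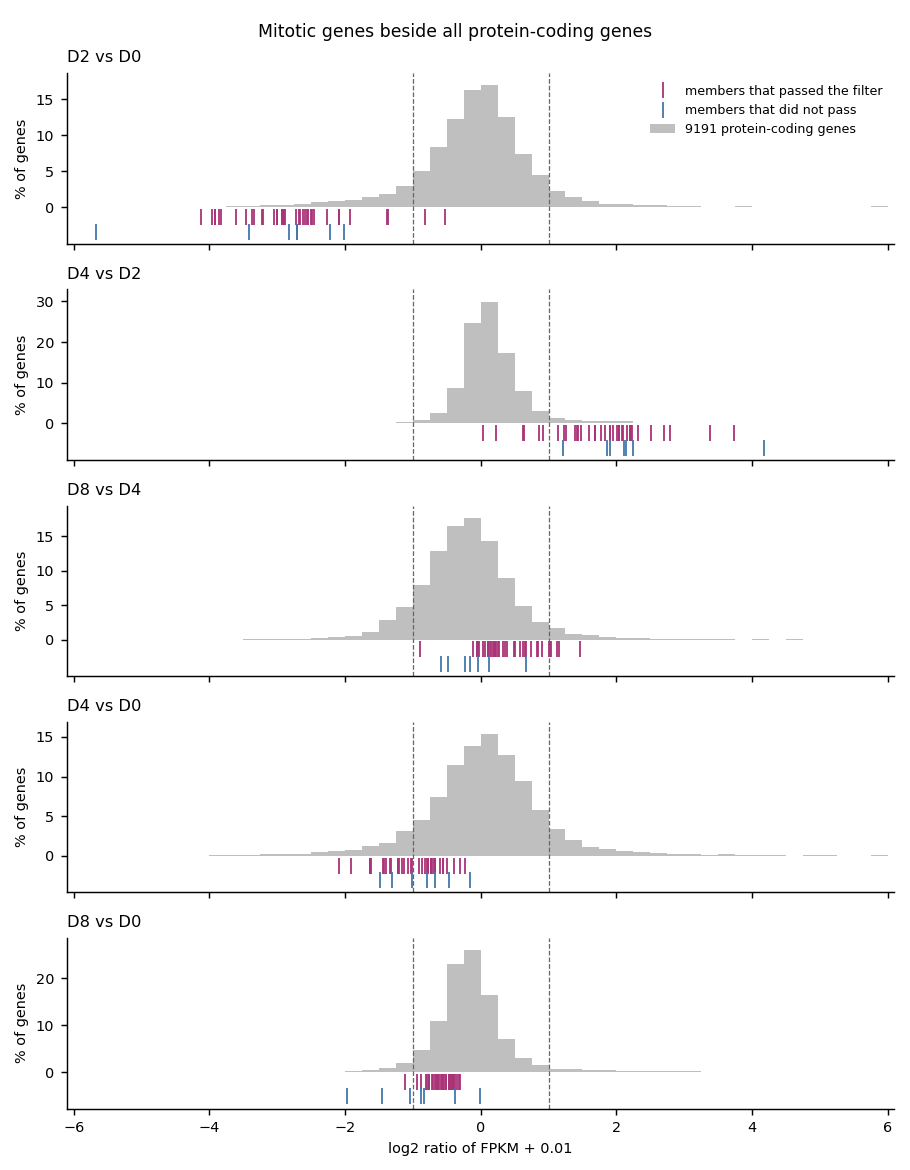
Histograms of the log2 ratio of FPKM + 0.01 (x axis) over the 9191 reliably expressed protein-coding genes, as percent of genes (y axis), for the 5 comparisons, with the 38 mitotic genes that passed the filter as upper ticks and the 7 that did not as lower ticks. Dashed lines mark a 2-fold ratio. The ticks lie almost all left of the lower line for D2 vs D0 and right of the upper line for D4 vs D2, and on both sides of 0 for D8 vs D4.

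The 6 genes of mitotic entry encode CDK1, its cyclins and their cofactors. CKS2, a small subunit that docks CDK1 on its substrates, had the highest level of the group, with FPKM 62.9, 10.5, 23.1 and 47.6 at D0, D2, D4 and D8. CCNB1 (chromosome 16, 47338239 to 47348385 of Sscrofa11.1), which encodes cyclin B1, was at 43.8, 3.09, 11.6 and 25.9 in the same order of stages. CCNB1 had the lowest share of its D0 level left at D2 in the group, 7.04%, at a log2 ratio of -3.82 (95% counting interval -3.99 to -3.67). Cyclin B2, encoded by CCNB2, was at 8.68, 0.926, 4.30 and 4.72. CCNA2, which encodes the cyclin A of S phase and G2, was at 17.7, 2.78, 7.57 and 11.4. CDK1 itself was at 5.09, 0.681, 2.20 and 4.13, with 13.4% of the D0 level at D2. CDCA3, whose product helps to trigger mitotic entry, was at 3.33, 0.581, 1.88 and 1.97, and its log2 ratio of -2.50 (-2.94 to -2.12) was the smallest difference of the group at D2. All 6 were past 2-fold in both steps, lower at D2 and higher at D4. They came apart afterwards: CCNB1 was 2.23-fold higher at D8 than at D4 (log2 1.16, interval 1.07 to 1.24), while CCNB2 was level within counting error (0.13, interval -0.03 to 0.30).

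Among the 3 kinases of the centrosome and spindle poles, AURKA (Aurora A, which matures centrosomes) had the highest level, with FPKM 8.68, 1.13, 3.89 and 6.51 at D0, D2, D4 and D8. NEK2, a kinase that splits the centrosomes (chromosome 9, 131547044 to 131560527), was at 2.43, 0.147, 2.07 and 1.11. The D2 value rested on 18 fragments, against 408 at D0, and the log2 ratio was -3.96 (-4.82 to -3.37). At D4 NEK2 was at 85.2% of the D0 level, the highest share of the set after CDCA2. It was then lower at D8, at 45.7% of D0, and its log2 ratio between D4 and D8, -0.89 (-1.20 to -0.61), was the lowest of the set. PLK1, the Polo-like kinase needed at many steps from entry to cytokinesis, did not pass the filter, with 1.29, 0.112, 0.518 and 0.465. It stayed at 40.1% of D0 at D4 and 36.0% at D8. The group thus held 1 gene with a level at D8 above that at D4 and 2 with a level below it, and for PLK1 the interval of that ratio, -0.54 to 0.22, held 0.

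The 6 spindle checkpoint genes and partners of the APC/C spanned a wide range at D2. MAD2L1, whose product is part of the inhibitor of the APC/C, had the highest level, with FPKM 32.9, 12.8, 19.8 and 24.9 at D0, D2, D4 and D8. Its share of the D0 level at D2, 38.9%, was the highest of the group, at a log2 ratio of -1.36 (-1.46 to -1.26). TTK, the kinase known as MPS1 that starts checkpoint signalling, lay at the other end with 4.71, 0.302, 2.02 and 2.87, or 6.41% of D0 at D2. In between were the checkpoint kinase BUB1, with 6.0, 0.796, 3.29 and 3.54, and its relative BUB1B, which encodes BUBR1, with 10.4, 0.999, 4.15 and 6.61. CDC20, the activator of the APC/C that the checkpoint holds back, was at 11.3, 1.49, 6.93 and 8.36. UBE2C, the ubiquitin-conjugating enzyme of the APC/C, was at 8.95, 1.86, 4.39 and 5.76. All 6 were at least 2-fold lower at D2 and 5 were at least 2-fold higher at D4, MAD2L1 being the exception at 1.55-fold. Each of the 6 had a higher level at D8 than at D4, by log2 0.10 (BUB1) to 0.67 (BUB1B).

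The chromosomal passenger complex corrects wrong attachments and steers cytokinesis, and 3 of its subunits were in the set. BIRC5, which encodes survivin, was at FPKM 21.4, 3.82, 6.98 and 12.4 at D0, D2, D4 and D8. CDCA8, which encodes borealin, was at 5.27, 0.652, 2.81 and 3.25. The kinase of the complex, AURKB, did not pass the filter, with 1.15, 0.238, 0.564 and 0.617, and its D2 value rested on 29 fragments. The levels at D2 were 17.8%, 12.4% and 20.7% of D0. At D4 they diverged, since BIRC5 reached 32.5% of D0 and CDCA8 53.4%. BIRC5 was then 1.78-fold higher at D8 than at D4 (log2 0.83, interval 0.70 to 0.96), which left BIRC5 at 57.9% of D0 and CDCA8 at 61.6%. INCENP, the scaffold of the complex and not among the 45 genes, was chosen for this comparison after its values were seen, and was at 1.39, 0.590, 1.57 and 1.15.

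The group of centromere and kinetochore genes held the largest difference of the set. CENPA encodes the histone H3 variant that marks centromeres (chromosome 3, 112263912 to 112272638). It was at FPKM 2.19, 0.0333, 0.776 and 0.550 at D0, D2, D4 and D8, which corresponds to 361, 4, 126 and 65 fragments. The D2 level was 1.52% of D0, and the 4 fragments left a wide interval of the log2 ratio, -7.92 to -4.67. CENPA was also the gene with the lowest share of D0 at D8, 25.1%. HJURP, the chaperone that loads CENPA, was at 1.3, 0.190, 0.742 and 0.722, or 14.7% of D0 at D2. Both failed the filter on low values. From D4 to D8 CENPA was lower (log2 -0.49, interval -0.95 to -0.05) and HJURP was level within counting error (-0.04, interval -0.43 to 0.35), and the intervals overlapped.

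The other 4 genes of the group passed the filter. NUF2 and NDC80 encode partners in the NDC80 complex, which binds microtubules. NUF2 had the highest mean level of the group, with FPKM 17.5, 2.11, 5.66 and 12.3 at D0, D2, D4 and D8, and NDC80 was at 12.3, 1.53, 7.20 and 7.03. They stood at nearly the same share of D0 at D2, 12.1% and 12.4%. Between D4 and D8 they differed: NUF2 was 2.17-fold higher (log2 1.12, interval 1.0 to 1.24), and NDC80 was level (-0.03, interval -0.16 to 0.09). The other 2 subunits of that complex, not among the 45 genes and looked up after these values were seen, were split in the same step, SPC24 with 54.2, 4.22, 16.1 and 46.7 and SPC25 with 4.36, 0.615, 2.72 and 3.06. CENPF, a large protein of the outer kinetochore, was at 12, 0.816, 4.72 and 9.64, and its D2 value was 6.81% of D0. CENPE, the kinetochore kinesin, was at 5.67, 0.913, 3.55 and 3.82. With 16.1% of D0 at D2 it had the smallest difference of the group. All 6 genes of the group were past 2-fold in both steps.

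Of the 5 kinesin motors, KIF11, which pushes spindle poles apart, had the highest level, with FPKM 15.3, 2.01, 8.96 and 11.5 at D0, D2, D4 and D8. KIF20A, a motor of the central spindle, was at 12, 1.28, 5.49 and 8.49. KIF23, which forms centralspindlin with RACGAP1, was at 10.3, 0.929, 3.85 and 5.40. It had the lowest share at D2 in the group, 8.99% of D0, with a log2 ratio of -3.46 (-3.69 to -3.26). KIF20B, which acts in cytokinesis, was at 5.86, 1.37, 4.16 and 4.25, and with 23.4% of D0 it kept the highest share. KIF2C, the microtubule depolymerase known as MCAK, was at 3.53, 0.338, 2.40 and 2.21. All 5 were past 2-fold lower at D2 and past 2-fold higher at D4. KIF2C was 7.11-fold higher at D4 than at D2 and reached 68.0% of D0, KIF20B reached 71.0%, and KIF23 reached only 37.3%.

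The 9 genes of spindle assembly and microtubule binding included the gene with the highest level of the set and the gene with the smallest difference. KPNA2, an importin alpha that holds spindle factors until Ran releases them, was at FPKM 85.4, 32.9, 51.2 and 58.9 at D0, D2, D4 and D8. Importin alpha also carries cargo into the nucleus of cells that do not divide. NUSAP1, which bundles spindle microtubules (chromosome 1, 129992797 to 130065641), was at 29.4, 20.3, 23.8 and 23.0. The D2 level of NUSAP1 was 69.3% of D0, at a log2 ratio of -0.53 (-0.58 to -0.48), so it was lower beyond counting error but short of 2-fold. At D4 it was 1.17-fold higher than at D2. GTSE1, a microtubule-tip protein of G2 and mitosis, lay at the other end, with 1.83, 0.0954, 1.09 and 1.22. Its D2 value came from 16 fragments, and the log2 ratio was -4.12 (-5.08 to -3.54).

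The other 6 genes of this group lay between. TPX2, which activates AURKA on the spindle, was at FPKM 13.7, 3.61, 8.62 and 9.96, and HMMR, a hyaluronan receptor that also binds the spindle, was at 9.99, 2.34, 6.57 and 6.45. DLGAP5, also known as HURP, which stabilizes kinetochore fibres, was at 23.3, 1.90, 8.87 and 15.9. Its share of D0 at D2 was 8.13%, against 26.3% for TPX2 and 23.4% for HMMR. The cytoskeleton-associated genes CKAP2, with 12.9, 2.0, 7.51 and 9.01, and TACC3, with 2.52, 0.417, 1.71 and 1.94, were alike in their shares of D0 at D2, 15.5% and 16.5%. CKAP2L, a relative of CKAP2, did not pass the filter, with 1.37, 0.184, 0.85 and 1.36. At 99.3% of D0 at D8 it came closest of the 45 genes to its starting level.

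The 4 genes of chromosome structure and the nuclear envelope were led by TOP2A, the topoisomerase that untangles sister chromatids, with FPKM 18.1, 2.75, 13.8 and 13.3 at D0, D2, D4 and D8. At 76.2% of D0, TOP2A was among the genes nearest to their starting level at D4, and the log2 ratio to D2 was 2.33 (2.23 to 2.43). MKI67, the gene of the Ki-67 antigen used to count cycling cells, was low at all stages and did not pass the filter, with 0.817, 0.116, 0.587 and 0.390. CDCA2, which brings phosphatase 1 to chromatin as mitosis ends, did not pass it either, with 1.06, 0.254, 0.95 and 0.809. CDCA2 had the highest share of D0 at D4 in the set, 89.8%. LBR, the lamin B receptor of the inner nuclear membrane (chromosome 10, 13389896 to 13416831), was at 2.88, 1.62, 1.66 and 1.94. LBR also has a role in sterol synthesis in cells that do not divide. Its level at D2 was 56.3% of D0, at a log2 ratio of -0.82 (-1.01 to -0.64), and from D2 to D4 it was level within counting error (0.03, interval -0.17 to 0.24). The other 3 genes were past 2-fold in both steps.

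The 3 cytokinesis genes encode proteins that build the contractile ring. RACGAP1, the GTPase-activating part of centralspindlin, was at FPKM 22.6, 4.09, 10.7 and 16.9 at D0, D2, D4 and D8. ECT2, the exchange factor that activates RhoA at the cell equator, was at 13.7, 2.32, 4.41 and 8.89. ANLN, which encodes anillin, the scaffold of the ring (chromosome 18, 37647952 to 37710939), was at 21.1, 1.38, 4.93 and 13.6. At D2 ANLN was at 6.55% of D0, with a log2 ratio of -3.92 (-4.06 to -3.81), and at D4 it was at 23.4%, the lowest share of the set. All 3 were still at least 2-fold lower at D4 than at D0, and no other group had all its members there. ANLN then differed most of the 45 genes between D4 and D8, at 2.76-fold higher (log2 1.46, interval 1.40 to 1.53).

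Between D4 and D8 the set did not move as one. Of the 38 reliably expressed genes 6 were at least 2-fold higher, beside 4.43% of all genes that passed the filter, and 0 were at least 2-fold lower, beside 10.1%. The same 6 were the count over all 45 genes, beside 11.0% higher and 16.7% lower among genes above 0. They were ANLN, CCNB1, NUF2, CKS2, CENPF and ECT2. For ANLN and CCNB1 the counting interval lay wholly past 2-fold, and for the other 4 it reached below. In all, D8 was above D4 for 34 of the 45 genes and below it for 11, beside 36.9% above and 59.2% below among genes above 0. The interval lay above 0 for 27 genes, below 0 for 4 (NEK2, MKI67, CENPA and CDCA2) and held 0 for 14. The median log2 ratio of the 38 genes was 0.30, while that of all reliably expressed genes was -0.21, so the centre of the data lay below 0 in this comparison. With libraries scaled by the median ratio over genes, which moves that centre by 0.21, 41 of the 45 genes were higher at D8 and the 4 just named were lower, and with scaling to the summed protein-coding FPKM 33 were higher and 12 lower. The smooth muscle genes ACTA2, TAGLN, DES and CNN1 were at least 2-fold higher at D8 as well, whereas RGS5 was at least 2-fold lower (log2 -1.06, interval -1.64 to -0.54) and MYH11 was at -0.23 (-0.60 to 0.12). Their part in the result was not tested.

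**Figure D3:**
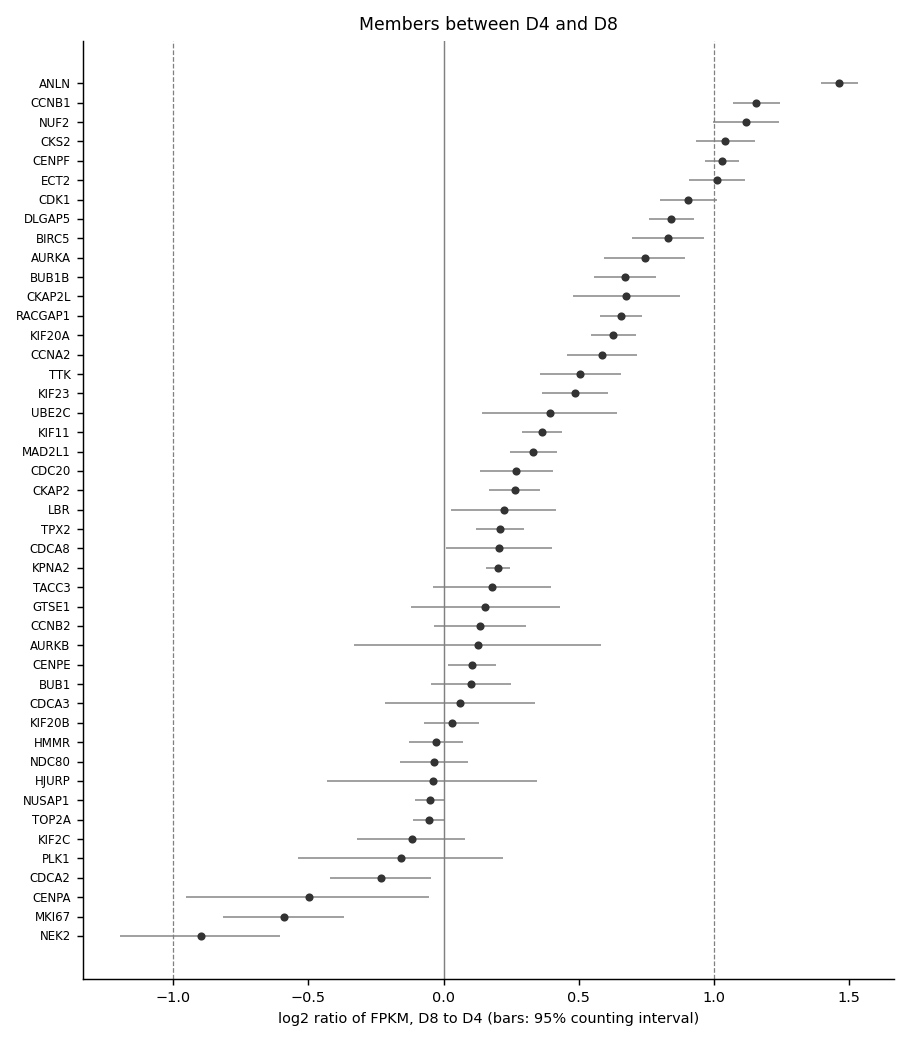
Log2 ratio of FPKM between D8 and D4 (x axis) for each of the 45 genes (y axis, sorted by the ratio), with bars for the 95% counting interval of the 2 libraries, which holds no replicate error. ANLN at 1.46 and NEK2 at -0.89 lie at the ends, and for 14 genes the bar crosses 0.

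The order of the 4 libraries followed 1 of 2 forms. All 45 genes were highest at D0 and lowest at D2, beside 15.1% of the protein-coding genes above 0 in a library. With median-ratio scaling this held for 43, CKAP2L and LBR being the exceptions, and with scaling to the summed protein-coding FPKM for 44, without LBR. For 34 genes the order from high to low was D0, D8, D4 and D2, held by 8.76% of all genes. For the other 11, which were CDCA2, CENPA, HJURP, HMMR, KIF2C, MKI67, NDC80, NEK2, NUSAP1, PLK1 and TOP2A, it was D0, D4, D8 and D2, held by 4.27% of all genes. For 7 of these 11 the counting interval between D4 and D8 held 0, so their neighbours in the order did not differ beyond counting error. Across the 45 genes the log2 ratio of D2 to D0 and that of D8 to D4, which share no library, had a Pearson r of -0.08 and a Spearman rho of -0.15. The genes are not independent of each other, and these values are a description only.

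Set against D0, the levels at D4 were between 23.4% (ANLN) and 89.8% (CDCA2), with a median of 54.9%. Of the 38 reliably expressed genes 18 were at least 2-fold lower at D4 than at D0, beside 8.81% of all genes, and of the 45 genes 21 were, beside 14.7%. The median log2 ratio of the 38 was -0.88, with 0.06 for all reliably expressed genes. At D8 the levels were between 25.1% (CENPA) and 99.3% (CKAP2L) of D0, with a median of 66.7%. Only NEK2 of the 38 genes was at least 2-fold lower than at D0, beside 3.68%. Over the 45 genes these were NEK2, PLK1, CENPA and MKI67, 4 genes beside 11.2%. The median log2 ratio of the 38 was -0.57, with -0.18 for all reliably expressed genes. The counting interval lay below 0 for 44 of the 45 genes, and for CKAP2L it held 0. The 3 comparisons with D0 share that library, so a high value there would enter each of them.

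**Figure D4:**
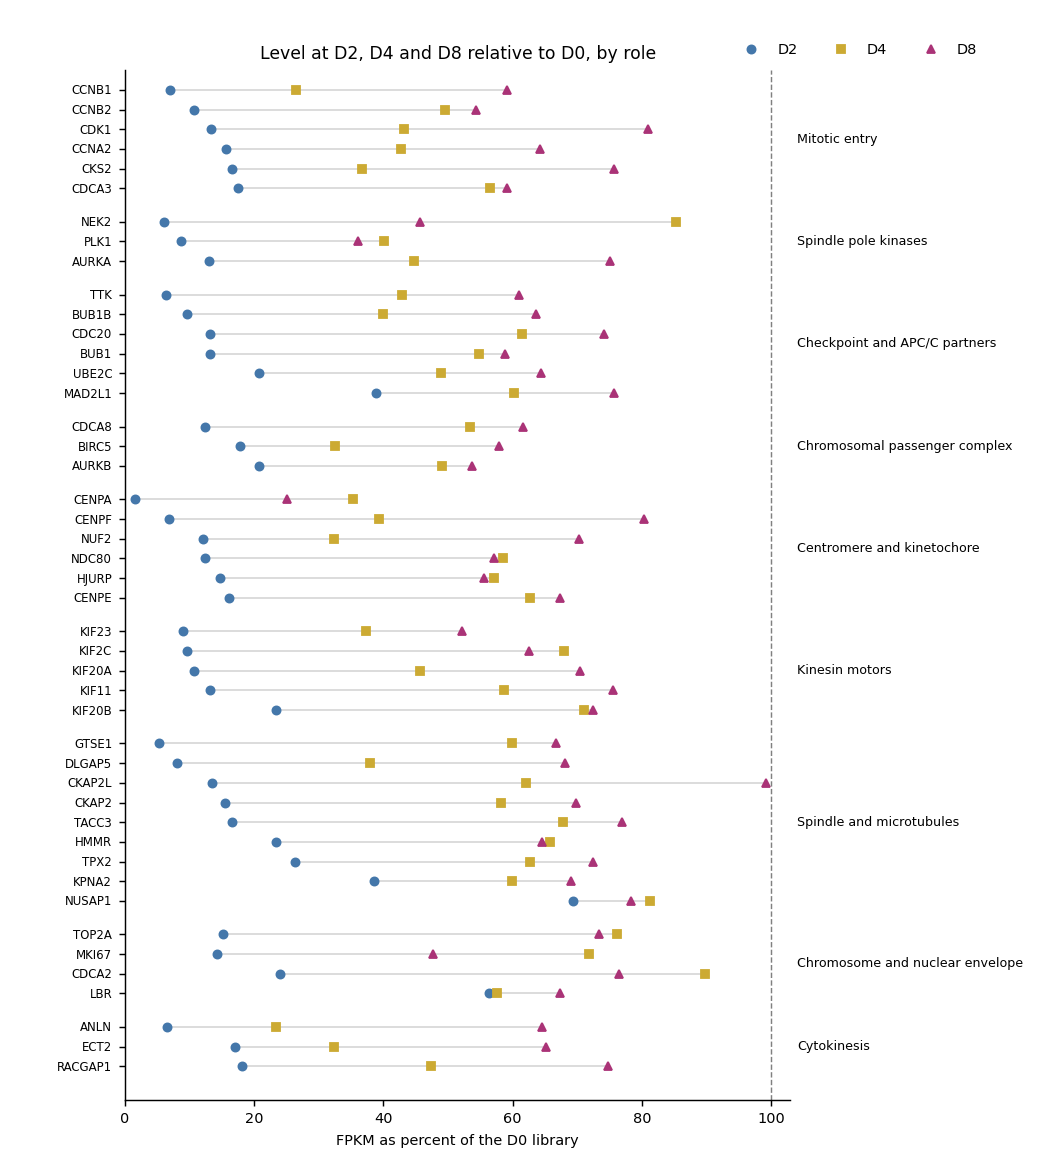
FPKM at D2 (circles), D4 (squares) and D8 (triangles) as percent of the D0 library (x axis) for the 45 genes (y axis), grouped by role and sorted by the D2 level, with 1 library per stage and no error bars. Every circle lies left of the other marks and every mark left of 100%, which other scalings would change for LBR and CKAP2L. The squares of NEK2 and CDCA2 lie near the right and those of ANLN and CCNB1 near the left.

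Other genes of the same processes were listed for comparison and held none of the 45 genes. Of 77 further mitotic genes 73 were listed and 59 passed the filter, among them condensin, kinetochore and kinesin genes. At D2, 44 of the 59 were at least 2-fold lower and 0 higher, beside 10.1% lower and 6.67% higher among all reliably expressed genes, with a median log2 ratio of -2.06. PIMREG, a regulator of the metaphase to anaphase step, differed most, with FPKM 9.79, 0.551, 2.38 and 6.25 at D0, D2, D4 and D8. At the other end DSN1, a kinetochore scaffold, was at 2.29, 3.08, 3.15 and 2.42. At D4, 38 of the 59 were at least 2-fold higher than at D2, beside 4.24%, with a median log2 ratio of 1.44. At D8, 3 of the 59 were at least 2-fold higher than at D4, a share near the 4.43% of all genes, with a median of 0.22.

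The regulators of G2/M transcription did not move as a block. Of 18 genes all were listed and 15 passed the filter. At D2, 2 of the 15 were at least 2-fold lower and 2 at least 2-fold higher, beside 10.1% and 6.67% of all reliably expressed genes. MYBL2, which encodes the activator B-MYB, was at FPKM 7.07, 0.981, 3.51 and 2.93 at D0, D2, D4 and D8. LIN9, a core subunit shared by the B-MYB and DREAM complexes, was at 3.55, 1.54, 2.45 and 3.01. FOXM1, the forkhead activator of late cell cycle genes, did not pass the filter, with 0.626, 0.105, 0.366 and 0.385. These 3 were highest at D0 and lowest at D2, like the mitotic genes. So were RBL1, RBBP4 and NFYC, with smaller differences at D2 (log2 -0.59, -0.25 and -0.63).

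RBL2 encodes the pocket protein p130 of the repressing DREAM complex and was at FPKM 1.74, 4.97, 6.35 and 2.73. Unlike the mitotic genes RBL2 was higher at D2 than at D0. From D2 to D4 RBL2 was higher again (log2 0.35, interval 0.27 to 0.44), the same direction as the mitotic genes. NFYA, the regulatory subunit of the CCAAT-binding factor, was at 2.25, 4.81, 4.47 and 2.89. E2F4, the E2F of DREAM, was at 6.35, 7.65, 10.4 and 4.63, with its partner TFDP1 at 2.81, 3.48, 4.87 and 2.33. RBL2, E2F4 and TFDP1 were the 3 of the 15 regulators at least 2-fold lower at D8 than at D4, beside 10.1% of all genes. CDKN1A, which encodes the inhibitor p21, was at 51.4, 73.6, 67.9 and 48.2. Its difference from D0 to D2 was short of 2-fold. Of the others, E2F5 (1.06, 0.509, 0.422 and 1.0) and NFYC (0.930, 0.598, 0.629 and 0.693) did not pass the filter. RBL1, TFDP2, LIN37, LIN52, LIN54, NFYB and RBBP4 had log2 ratios between -0.59 (RBL1) and 0.63 (TFDP2) at D2.

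The core of the APC/C is present throughout the cell cycle, and the list for it also held UBE2S and FZR1. Differences between the libraries were mostly short of 2-fold, though ANAPC16 came near that limit for D4 vs D0 (log2 -0.98). Of 16 genes 15 passed the filter, with a median log2 ratio of -0.11 at D2. Only UBE2S, the chain-extending enzyme, was at least 2-fold lower, 1 of 15 beside 10.1% of all genes, with FPKM 40.8, 14.2, 25.4 and 20.7 at D0, D2, D4 and D8. The member at the other end was ANAPC5, a scaffold subunit, with 6.74, 8.61, 9.12 and 8.0.

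DNA replication and S phase genes were lower at D2 by a smaller median and stood relatively high at D4. Of 50 genes 42 passed the filter. At D2, 17 of the 42 were at least 2-fold lower than at D0, beside 10.1% of all genes, with a median log2 ratio of -0.85, and TK1, the thymidine kinase of the salvage pathway, differed most, with FPKM 36.8, 5.61, 20.6 and 25.6. CCNE1, which encodes cyclin E1, was at 1.34, 2.21, 2.87 and 1.16. At D4, 23 of the 42 were at least 2-fold higher than at D2, beside 4.24%, with a median of 1.01, and 6 were at least 2-fold higher than at D0, beside 10.4% of all genes, with a median of 0.13 against D0. In all, 25 of the 42 were above their D0 level at D4, beside 53.8% of all genes that passed the filter. None of the 38 mitotic genes was above its D0 level at D4, while 13 of the 59 further mitotic genes were. Between D4 and D8, 32 of the 42 were lower, beside 64.9% of all reliably expressed genes, and 9 were past the 2-fold limit, beside 10.1%. The median was -0.51, where the median of the 38 mitotic genes was 0.30 and that of all reliably expressed genes was -0.21.

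Of 14 G1 cyclins, CDKs and CDK inhibitors 12 were listed and 10 passed the filter. At D2, 4 of the 10 were at least 2-fold lower, beside 10.1% of all genes, namely CCND1, CDKN2D, RB1 and CDKN2C, and 0 were higher. CDKN2D, an inhibitor of CDK4 and CDK6, differed most, with FPKM 5.92, 0.971, 1.69 and 3.74. CDKN1A, given above, lay at the other end.

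Circular RNAs spliced from within the same loci were a second readout. They were matched by position on the same strand, and their unit is SRPBM, junction reads scaled by all reads mapped for circRNA calling. SRPBM steps were whole junction reads, 1 read being worth 6.42, 7.27, 5.94 and 8.40 at D0, D2, D4 and D8. Within 15 of the 45 genes lay 23 circRNAs, with 118, 76, 75 and 43 junction reads in all at D0, D2, D4 and D8. That was 0.222%, 0.173%, 0.147% and 0.115% of all junction reads. The summed circRNAs at D2 were 72.9% of D0 by SRPBM (95% counting interval 53.9 to 98.1), against 19.8% (19.5 to 20.1) for the summed fragments of the 45 mRNAs by library total. Those 2 measures are scaled differently, and they cover different genes, since the circRNAs came from 15 of the 45. A circRNA is listed at 0 where fewer than 2 junction reads were found.

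In single genes the counts were small, and 3 of the 23 circRNAs were above 0 in all 4 libraries. The circRNA ssc_circ_0007866 within HMMR (chromosome 16, 60299435 to 60314538) had 16, 16, 24 and 16 junction reads in the 4 libraries. Its D2 level was 113% of D0 (interval 53.0 to 242), where the HMMR mRNA was at 23.4% (21.3 to 25.7), and the intervals did not overlap. The other circRNA within HMMR, ssc_circ_0007865, had 17, 6, 0 and 0 junction reads. Those that were at 0 at D2 cannot be among the 3. For CENPF, ssc_circ_0004591 had 13, 8, 13 and 7 junction reads, or 69.7% at D2 (25 to 181), where the mRNA was at 6.81% (6.18 to 7.48). For LBR, ssc_circ_0004935 had 11, 12, 6 and 5, or 124% (49.9 to 309), and the interval of the mRNA, 49.5 to 64.0, overlapped it. The circRNA of TOP2A, ssc_circ_0005634, named after its values were seen, was listed at 15, 0, 8 and 0 junction reads.

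The 45 genes lay on 17 chromosomes, with 6 genes each on chromosomes 1 and 14, and their start and end in the deposited tables were those of RefSeq for Sscrofa11.1. Several overlap other genes. The libraries kept the strand, and whether the counting used it is not given in the sources used here, so reads of overlapping genes on opposite strands may not have been kept apart. NUSAP1 overlaps OIP5 on the opposite strand over 17581 bases, with OIP5 at FPKM 1.21, 0.753, 1.04 and 1.02. On that strand it also overlaps NDUFAF1 over 738 bases, with NDUFAF1 at 4.56, 10.6, 9.11 and 5.13, highest at D2. KIF23 overlaps LOC106509080 on the opposite strand over 4071 bases, with 190 fragments for KIF23 and 223 for LOC106509080 at D2. KIF20A overlaps CDC23 over 1811 bases, with 380 fragments for KIF20A and 782 for CDC23 at D2. The overlaps of HMMR with NUDCD2 (272 bases), AURKA with CSTF1 (234 bases) and CCNA2 with EXOSC9 (619 bases) were shorter. CSTF1 was at 7.10, 10.8, 11.3 and 7.96, so at D2 it was higher where AURKA was lower. AURKB holds 2 tRNA genes on its own strand with 63, 51, 59 and 28 fragments and with 22, 11, 21 and 14. At D2 AURKB itself had 29 fragments, so its values are uncertain.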

How the data were processed

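Total RNA of subcutaneous preadipocytes was sequenced as 1 pooled library of 3 piglets per stage. The authors aligned reads to Sscrofa11.1 with HISAT2 v2.0.5 and deposited FPKM for genes. For circRNAs the authors deposited SRPBM, another unit, from BWA alignments and circRNA calls of at least 2 junction reads. Both share 1 column and were told apart by biotype.

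The 45 symbols were matched to protein-coding rows. Ratios were taken on log2(FPKM + 0.01), with FPKM of at least 1 in at least 3 of 4 libraries and a fold of 2 for calls. With 1 library per stage no test was run. Library totals were computed from the deposited FPKM of tRNA genes, whose length is their span, and a whole length in bases was then found for 22941 of 22944 genes. The fragments found made up 96.8% to 97.2% of the totals. When tested on simulated data, 92.1% of 2000 genes had all 4 fragment numbers equal to those drawn, and 96.0% of genes with at least 20 fragments in every library. The simulation used the lengths found, so it cannot show a length that is a whole fraction of the true one. Fragment numbers of such a gene would be too low by the same factor. Ratios of fragment numbers have exact conditional binomial 95% intervals, and shares have Wilson intervals, for counting error only. Python 3.11.15, numpy 2.4.6, pandas 2.3.3 and scipy 1.17.1 were used.

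In each role group the gene with the highest mean, the largest and the smallest difference from D0 to D2 were to be described, with every gene that failed the filter, and the values of the other members are given too. In the comparison lists the genes at both ends of the D2 ratio were named, and the regulators of G2/M transcription, of which 1 is not reported here. The members and lists were chosen with earlier results of these data known. Alternatives were pseudocounts of 0.1 and 1, other filters, a fold of 1.5, and scaling by median ratios or by summed protein-coding FPKM. Promoter motifs and sequences were not analysed here.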

Additional observations from a re-analysis of the deposited data

How the results depend on the processing

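No count or median over the 38 genes changed direction under the alternatives run, while single genes did. With a pseudocount of 1 the median log2 ratio was -2.16 for D2 vs D0 (-2.89 as reported), 1.21 for D4 vs D2 (1.91) and -0.72 for D4 vs D0 (-0.88), and genes past 2-fold numbered 3 for D8 vs D4 (6) and 0 for D8 vs D0 (1). A larger pseudocount shrinks ratios of low genes by construction. Median-ratio scaling gave a median of 0.51 for D8 vs D4 (0.30) and -0.41 for D8 vs D0 (-0.57), with 0 genes past 2-fold in the latter. Scaling to summed protein-coding FPKM gave 3 genes for D8 vs D4. Without the filter 4 genes were past 2-fold for D8 vs D0. A limit of 1.5-fold gave 15 for D8 vs D4 (14 higher, 1 lower), 32 for D4 vs D0 (18) and 17 for D8 vs D0. Of 225 ratios of single genes, 123 moved by more than their counting error with a pseudocount of 1, 70 with median-ratio scaling, 10 with a pseudocount of 0.1 and 8 with scaling to summed protein-coding FPKM. The sign turned for 9 of the 225 with median-ratio scaling (LBR for D4 vs D2, CKAP2L for D8 vs D0, and HJURP, HMMR, KIF2C, NDC80, NUSAP1, PLK1 and TOP2A for D8 vs D4) and for 2 with scaling to summed protein-coding FPKM (LBR for D4 vs D2 and KIF20B for D8 vs D4), none of them 2-fold as deposited. Depth limits CENPA, GTSE1, NEK2, PLK1, HJURP and AURKB at D2, each under 30 fragments, and all circRNAs. No library could be left out, since each stage has 1. No paired analysis was possible because each stage is 1 pooled library without replicate numbers.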
